A study of Mus musculus with 2 samples.

Results

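The genes described here are the cyclins, the cyclin-dependent kinases (CDKs) with their inhibitors and binding proteins, and a set of replication and mitosis genes. They were taken by symbol: Ccn followed by a letter and a number, Cdk, Cdc, Mcm or E2f followed by a number, Cdkn, and Pcna, Tk1, Mki67, Top2a, Rrm1, Rrm2, Plk1, Bub1, Aurka and Aurkb. This gave 77 genes read by 102 probe sets, of 8251 named genes and 10833 named probe sets on the array. The study measured mouse total RNA on 2 single-colour oligonucleotide arrays, replicate 1 and replicate 2, which form 1 group without treatment. Both samples are titled liver and described as purchased liver total RNA of a single catalogue item, whereas the source field names spleen. Strain, sex, age and the number of animals behind the RNA are not stated in the labels, and the spread between the arrays may be technical only.

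Cyclins are the regulatory partners of CDKs, and successive cyclin and CDK pairs move a cell through growth, DNA replication and mitosis. D-type cyclins with Cdk4 start the process by releasing E2F transcription factors, which switch on genes of DNA replication, and CDK inhibitors hold it back. Most hepatocytes of the adult liver rest outside the cell cycle but can re-enter it after loss of tissue, and many mouse hepatocytes are polyploid.

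The tissue label was checked with marker genes. The 5 measured hepatocyte markers, among them Alb at 64627 (replicate 1) and 65800 (replicate 2), were all above background, and 0 of the 9 measured B and T cell markers were. Of these lymphocyte markers Cd4 had the highest mean signal (337 and 503), and Cd8a gave 22.2 and 15.4. This count depended on the background threshold, described below. With the 90th percentile as the threshold (325 and 308), Cd4 and Cd79a (450 and 333) were above it on both arrays. With a fixed signal of 200, Ms4a1 (223 and 288) was above it as well. Above background were also 4 of 5 macrophage and 2 of 4 erythroid precursor markers. The latter were the globin gene Hba-a1 (24075 and 24908) and Alas2, the erythroid enzyme of haem synthesis (2164 and 1730). The other erythroid markers, Epor (222.5 and 265.2) and Klf1 (234.2 and 367.8), were not above it. The part of these other cells in the signals of cell cycle genes was not tested, and in bulk RNA fewer cells of a type and less RNA per cell cannot be told apart. Both arrays had a trimmed mean signal of 500.5, leaving out the top and bottom 2% of probe sets, and 16 of 12488 values were identical.

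Promoter sequences are given first, with the motifs through which E2F and other factors are known to act on cell cycle genes. RefSeq windows of assembly GRCm38.p6, running from 250 bases before to 50 bases after the annotated start, matched 65 of the 77 genes and 6572 of the 8251. The E2F-type letters TTTCCCGC, TTTGGCGC, TTTCGCGC or TTTGCCGC on either strand were held by 10 of the 65 genes (15.4%), against 4.32% of all genes. Genes of origin licensing and firing held them in 5 of 9 cases. The letters TTTGAA of the cell cycle homology region (CHR), found in promoters of mitotic genes, were held by 16 of 65 genes (24.6%), against 15.5% of all genes, and by 5 of 9 mitosis genes, or 3 of 9 in the bases before the start alone. The NF-Y box CCAAT was held by 42 of 65 (64.6%), against 42.5% of all genes. A separate list of other cell cycle and replication genes, described below, had 62 genes with a promoter. Of these 62, 15 (24.2%) held E2F-type letters, 20 (32.3%) CHR letters and 37 (59.7%) CCAAT. The higher shares were therefore not particular to the 77 genes. E2F-type letters on opposite strands can share bases, as they do in Mcm5 and Mcm6. Shown are 6 promoters as the 250 bases before the start, 5′ to 3′ in the direction of the gene, with every such motif of either strand in capitals. Mcm5 and Mcm6 carry E2F-type letters, Cdk1 carries these and CHR letters, Cdc20 carries CHR letters, and Tk1 and Cdk4, the replication enzyme and the CDK with the strongest signals, carry none of the motifs.
Mcm5: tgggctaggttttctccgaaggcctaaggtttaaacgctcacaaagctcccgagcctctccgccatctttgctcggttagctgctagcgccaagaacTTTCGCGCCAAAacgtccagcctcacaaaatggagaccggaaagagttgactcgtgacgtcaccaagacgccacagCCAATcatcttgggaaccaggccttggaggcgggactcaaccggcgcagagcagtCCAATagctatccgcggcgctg
Mcm6: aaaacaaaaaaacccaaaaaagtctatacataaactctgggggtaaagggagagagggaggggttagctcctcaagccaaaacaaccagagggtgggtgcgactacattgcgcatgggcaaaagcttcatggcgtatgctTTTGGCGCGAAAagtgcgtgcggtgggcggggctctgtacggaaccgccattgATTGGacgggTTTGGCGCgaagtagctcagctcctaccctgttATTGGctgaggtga
Cdk1: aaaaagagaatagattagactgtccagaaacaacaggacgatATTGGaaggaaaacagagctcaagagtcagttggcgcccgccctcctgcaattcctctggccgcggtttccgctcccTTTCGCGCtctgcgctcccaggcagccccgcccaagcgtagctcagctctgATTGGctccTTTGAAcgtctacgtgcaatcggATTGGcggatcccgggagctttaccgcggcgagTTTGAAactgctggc
Cdc20: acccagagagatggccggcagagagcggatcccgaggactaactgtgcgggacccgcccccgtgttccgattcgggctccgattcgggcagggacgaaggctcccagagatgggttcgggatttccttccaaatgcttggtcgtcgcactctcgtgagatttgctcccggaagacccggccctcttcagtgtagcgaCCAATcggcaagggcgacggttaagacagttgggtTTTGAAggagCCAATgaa
Tk1: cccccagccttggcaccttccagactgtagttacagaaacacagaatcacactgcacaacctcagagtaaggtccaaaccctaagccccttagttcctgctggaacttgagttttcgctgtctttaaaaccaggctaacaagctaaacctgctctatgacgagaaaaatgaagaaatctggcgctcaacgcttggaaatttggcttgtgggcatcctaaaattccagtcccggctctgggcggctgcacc
Cdk4: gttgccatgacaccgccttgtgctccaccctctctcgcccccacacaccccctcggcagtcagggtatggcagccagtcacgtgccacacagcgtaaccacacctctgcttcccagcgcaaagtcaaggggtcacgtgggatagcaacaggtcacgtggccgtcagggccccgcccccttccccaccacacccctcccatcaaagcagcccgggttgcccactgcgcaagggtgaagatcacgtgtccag

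These windows lie at chr8:75109259-75109508 (+ strand) for Mcm5, chr1:128359706-128359955 (- strand) for Mcm6, chr10:69352913-69353162 (- strand) for Cdk1, chr4:118437344-118437593 (- strand) for Cdc20, chr11:117826015-117826264 (- strand) for Tk1 and chr10:127063285-127063534 (+ strand) for Cdk4. In Mcm5 the overlapping E2F-type letters begin 153 and 149 bases before the start. In Mcm6 an overlapping pair begins 110 and 106 bases before it and a further copy 47 bases before it. In Cdk1 the E2F-type letters begin 131 bases before the start and the nearer CHR letters 15 bases before it, and in Cdc20 the CHR letters begin 18 bases before it. A match is a string of letters and not a bound site, and the absence of a match says only that these letters are not in this window.

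Each signal was set against a background threshold, the 95th percentile of 95 genes typical of brain, retina, testis or muscle, which lay at 550.4 on replicate 1 and 598 on replicate 2. A gene with several probe sets was read from its brightest. Of the 77 genes, 19 (24.7%) were above the threshold on both arrays, near the share among all named genes (25.1%). A further 2 were above it on 1 array and 56 on neither. The median percentile of the 77 genes among all named genes was 50.3, against 50.01 for all genes. Of the 77 genes 19 lay among the dimmest 25% of all genes and 19 among the brightest 25%, and 0 lay in the brightest 10%, which held 826 of the 8251 genes. The count depended on the threshold. It was 37 of 77 (48.1%, against 49.3% of all genes) with a fixed signal of 200, and 6 of 77 (7.79%, against 15.99%) with the 99th percentile of the same tissue genes. A gene that is not above the threshold is not thereby absent. Probe brightness also depends on probe sequence, so the order of genes below is an order of signal and not of transcript abundance.

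**Figure D1:**
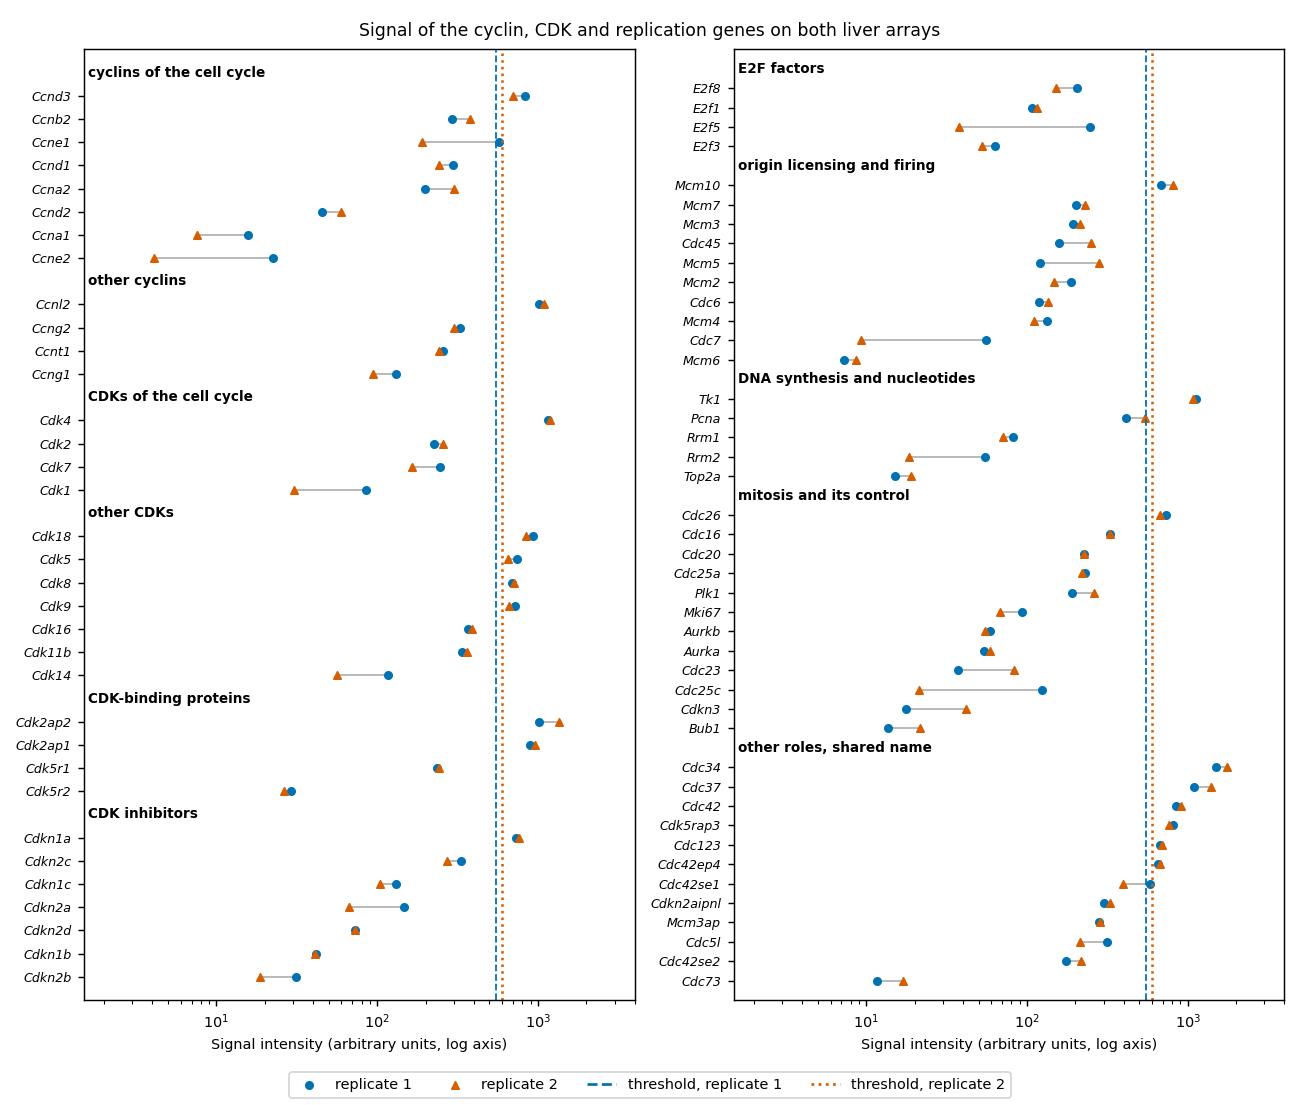
Signal intensity (arbitrary units, log axis) of the 77 genes on both liver arrays, grouped by role, with circles for replicate 1, triangles for replicate 2 and vertical lines for the background threshold of each array. The 19 genes with both symbols right of the lines include Ccnd3, Cdk4, Cdkn1a, Mcm10 and Tk1, whereas all 4 E2F genes lie left of them.

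Among the 8 cyclins of the cell cycle, Ccnd3, a D-type cyclin, was above the threshold on both arrays, with 829 on replicate 1 and 704 on replicate 2. The other D-type cyclins were dimmer on both arrays: Ccnd1 gave 295.7 and 241.3, and Ccnd2 gave 45.3 and 59.6. Each of them was read by other probes, so this order does not rank their transcripts. No cyclin of the later phases was above the threshold on both arrays. Ccne1, a partner of Cdk2 at the start of replication, gave 572 on replicate 1, above the threshold, and 191.1 on replicate 2, below it. Ccne2, its paralogue, gave 22.5 and 4.1. The replication and mitosis cyclin Ccna2 gave 199.3 and 302, and the mitotic cyclin Ccnb2 gave 291.4 and 379. Ccna1, known mainly from the male germ line, gave 15.8 and 7.6.

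Of the 4 cyclins that act outside the core cycle, 1 was above the threshold. This was Ccnl2, a cyclin of splicing and transcription, with 1020 on replicate 1 and 1092 on replicate 2. Ccng2, an atypical cyclin, gave 327 and 299.1, Ccnt1, the partner of Cdk9, gave 257.3 and 243.3, and Ccng1, a target of the tumour suppressor Trp53, gave 130.2 and 93.9. The order of the 4 was the same on both arrays.

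Of the 4 cell cycle CDKs, Cdk4, the partner of D-type cyclins, was above the threshold, with 1156 on replicate 1 and 1184 on replicate 2. Cdk2, which acts with cyclins E and A, gave 226.9 and 257.3. Cdk7, the kinase that activates other CDKs, gave 246.1 and 164.9. Cdk1, the kinase of mitotic entry, was the dimmest, with 85.2 and 30.2. The pair of values for Cdk4 differed by a factor of 1.02 and that for Cdk1 by a factor of 2.82.

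Of the 7 CDKs of transcription and of other roles, 4 were above the threshold. Cdk8, the kinase of the Mediator complex, gave 686 on replicate 1 and 708 on replicate 2, and Cdk9, the kinase of transcription elongation, gave 717 and 664. Cdk5, best known from neurons, gave 745 and 656, and Cdk18 gave 938 and 847. These 4 genes lay between 656 and 938 on both arrays. The remaining members were Cdk16 (367 and 387), Cdk11b (337 and 361) and Cdk14 (116.6 and 56.6), the lowest. Of the 4 CDK-binding proteins, Cdk2ap2 (1022 and 1350) and Cdk2ap1 (889 and 958) were above the threshold. The Cdk5 activators were not: Cdk5r1 gave 237.2 and 244.2, and Cdk5r2 gave 29.1 and 26.4.

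Of the 7 CDK inhibitors, Cdkn1a, an inhibitor induced by Trp53, was above the threshold, with 731 on replicate 1 and 759 on replicate 2. The next was Cdkn2c, an inhibitor of Cdk4 and its closest relative, with 333.9 and 273.9. Cdkn1c, an imprinted inhibitor, gave 130.2 and 104.6, and Cdkn1b, an inhibitor of resting cells, gave 41.9 and 40.9 in its brighter probe set. Cdkn2a gave 146.7 and 66.7, Cdkn2d 72.9 and 73.2, and Cdkn2b, the lowest, 31.3 and 18.6. Cdkn1a was thus the sole inhibitor past the threshold, and its second probe set was not, as given below.

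None of the 4 E2F genes was above the threshold on either array. E2f8, an atypical repressor of the family, gave 204.1 on replicate 1 and 151.4 on replicate 2, E2f1, an activator, 108.2 and 116.4, and E2f3 63.6 and 52.7. E2f5, a repressor, gave 245.9 and 37.7, the largest ratio between the arrays among the 77 genes, each read from its brightest set (6.52-fold). The signals of E2f8 and E2f1 come from probe sets of suffix r and f, names that mark sets with less specific probes. The plain set of E2f1 gave 13.4 and 36.5. A Plk1 set of suffix f gave 108.1 and 116.4, nearly the values of the E2f1 set of suffix f. Whether these 2 sets read the same RNA was not tested. Of the 77 genes 8 were read from a suffixed set, namely E2f8, E2f1, Cdkn1b, Mcm3, Plk1, Mki67, Bub1 and Cdc25c. None of these 8 was above the threshold on both arrays.

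Of the 10 genes of origin licensing and firing, Mcm10, which helps to activate the replicative helicase, was above the threshold on both arrays, with 679 on replicate 1 and 813 on replicate 2. The 6 subunits of the helicase itself were not. Mcm7 gave 202.6 and 231.3, Mcm3 194.2 and 215.5, and Mcm5 120.5 and 282.9. The values of Mcm3 come from a set of suffix s, and its plain set gave 24.3 and 56.5. Mcm2 gave 188.6 and 146.9, Mcm4 132.6 and 110.8, and Mcm6 7.3 and 8.6. These subunits work together in 1 ring-shaped complex, and their signals, each from its own probes, do not give their ratio. Cdc45, a partner of the helicase, gave 158.2 and 251.8, the loading factor Cdc6 119.3 and 135.3, and the kinase Cdc7 55.8 and 9.3.

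Of the 5 genes of DNA synthesis and nucleotide supply, Tk1, the thymidine kinase of the salvage pathway, was above the threshold, and its brighter probe set gave 1130 on replicate 1 and 1086 on replicate 2. Pcna, the sliding clamp of DNA polymerases, fell short of it on both arrays, with 415 and 540.1. Rrm1 and Rrm2, the subunits of ribonucleotide reductase, gave 82.2 and 71.1 for Rrm1 and 54.5 and 18.4 for Rrm2. Top2a, the topoisomerase of dividing cells, gave 15.1 and 18.9.

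Of the 12 genes of mitosis and its control, Cdc26 was above the threshold, with 730.2 on replicate 1 and 669.7 on replicate 2. It encodes a subunit of the anaphase-promoting complex, a ubiquitin ligase that also acts in resting cells. Cdc16, another subunit, gave 329.8 and 328.3, and Cdc23, likewise a subunit, 37.1 and 82.6. The mitotic activator Cdc20 gave 225.9 and 227.3, the phosphatase Cdc25a 229.7 and 219.1, and the kinase Plk1 190.3 and 261.1. The proliferation marker Mki67 gave 93.2 and 67.8 in a set of suffix r, whereas its plain set gave 6.7 and 13.2. Aurka gave 54 and 59, Aurkb 59.2 and 54.5, and the checkpoint kinase Bub1, the lowest, 13.7 and 21.5. Counted with the origin and DNA synthesis genes, 3 of 27 (11.1%) were above the threshold on both arrays, against 25.1% of all named genes. Their median percentile was 37.2, against 50.01. These role groups were drawn up after the signals were seen, so the lower share is a description only. With the 99th percentile as the threshold 1 of these 27 was above it, namely Tk1, against 15.99% of all genes. With a fixed signal of 200 there were 8 of 27, against 49.3% of all genes.

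A last set of 12 genes shares the Cdc, Cdk, Cdkn or Mcm name and was placed apart from the other role groups. This placing was made after the signals were seen, and it includes Cdc34, which had the highest signal of the 77 genes. Of the 12, 6 (50%) were above the threshold on both arrays, against 25.1% of all named genes, with a median percentile of 72.5. Cdc34, a ubiquitin-conjugating enzyme, gave 1495 on replicate 1 and 1750 on replicate 2. Cdc37, a co-chaperone of Hsp90, gave 1095 and 1398, and Cdc42, a GTPase of the cytoskeleton, gave 848 and 908. Also above it were Cdk5rap3 (814 and 770.0), Cdc123 (675 and 698) and Cdc42ep4, an effector of Cdc42 (652 and 677). Cdc42se1, another effector, gave 580.2 and 397, above the threshold on 1 array, and Cdc73, a subunit of a transcription elongation complex, gave 11.7 and 17. Without these 12 genes, 13 of the remaining 65 (20.0%) were above the threshold, against 25.1% of all named genes.

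**Figure D2:**
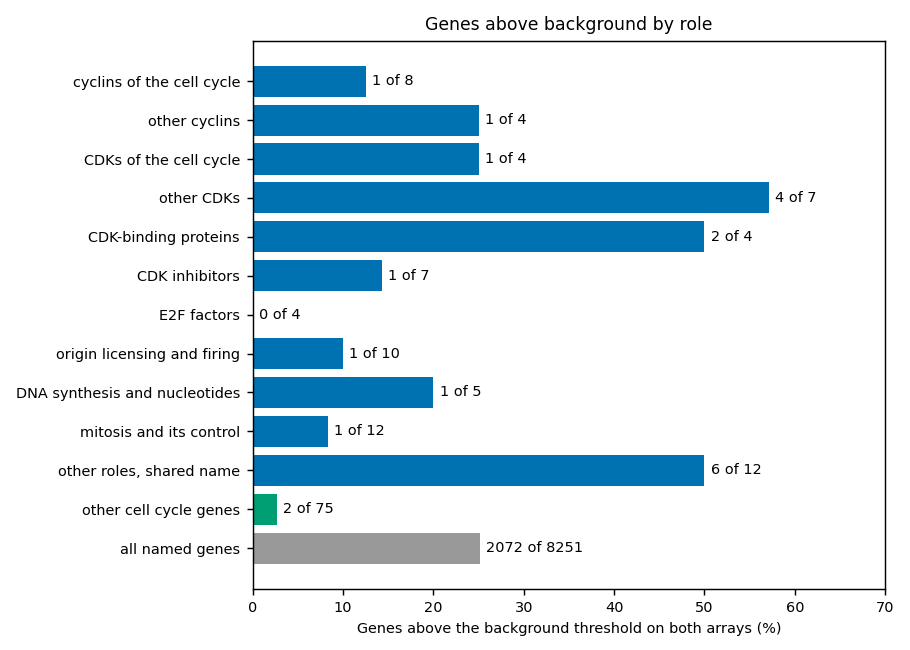
Share of genes above the background threshold on both arrays (%, horizontal axis from 0) for each role group of the 77 genes, for 75 other cell cycle genes and for all named genes, with the counts beside the bars. The other CDKs stand at 4 of 7 and the shared-name genes at 6 of 12, and the mitosis genes at 1 of 12 against 2072 of 8251 named genes. The role groups were drawn up after the signals were seen.

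Of the separate list of 90 other cell cycle and replication genes, 75 were measured. Of these, 2 (2.67%) were above the threshold on both arrays, against 25.1% of all named genes, and their median percentile was 36.3. They were Anapc5, a further subunit of the anaphase-promoting complex (2451 on replicate 1 and 2341 on replicate 2), and Bub3, a spindle checkpoint protein (873 and 941). On replicate 1 alone, Cks2, Rad21 and Mnat1 were above it as well. With the 90th percentile of the tissue genes as the threshold 10 of the 75 (13.3%) were above it, against 38.6% of all genes, and with a fixed signal of 200 there were 18 (24.0%), against 49.3%. At each of these thresholds the share of this list was the lower.

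The E2F-type motif and the signal were set side by side. Of the 10 genes with E2F-type letters (Cdc25a, Cdc6, Cdk1, Cdk2, Cdkn2a, E2f3, Mcm3, Mcm5, Mcm6 and Mcm7), 0 were above the threshold on both arrays, and their signals ran from 7.3 for Mcm6 to 282.9 for Mcm5. Put the other way, the letters were held by 0 of the 18 genes above the threshold with a promoter in the table and by 10 of the 47 others. Over all named genes the letters were held by 69 of 1711 (4.03%) above the threshold and by 215 of 4861 (4.42%) among the rest. The CHR letters were held by 1 of the 18, Cdc42ep4, and by 15 of the 47. Over all named genes the shares were 234 of 1711 (13.7%) above the threshold and 783 of 4861 (16.1%) among the rest. These counts are small and carry no test.

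The arrays were then compared for the same genes, as log2 of replicate 1 over replicate 2. The median difference was -0.01 for the 77 genes, with 38 higher and 39 lower on replicate 1, against 0.02 for all named genes. More than 2-fold apart were 13 of 77 genes (16.9%), against 14.0% of all named genes. Of the 13, 10 were higher on replicate 1 (13.0% of the 77, against 8.05% of all named genes) and 3 were lower (3.90%, against 5.94%). Those 13 included Ccne1, Ccne2, Cdk1, Rrm2, E2f5 and Mcm5. Of the 13, Mcm5, Cdc25c, Cdk14 and Cdc23 had a second probe set, and in each it differed in the other direction. The second set of Mcm5 gave 155.3 on replicate 1 and 59 on replicate 2, and that of Cdc25c 6.2 and 67.8. That of Cdk14 gave 20.4 and 54, and that of Cdc23 51.9 and 38.4. Of the 19 genes above the threshold on both arrays 0 differed over 2-fold, against 0.0965% of all such genes, and of the 56 genes above it on neither array 12 did (21.4%), against 19.6% of all such genes. The exception to this split was Ccne1, with a log2 difference of 1.58. With 32 added to each signal before the ratio, which damps dim values, 5 of the 77 (6.49%) differed over 2-fold, against 5.68% of all named genes. No difference between single arrays has a replicate check.

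**Figure D3:**
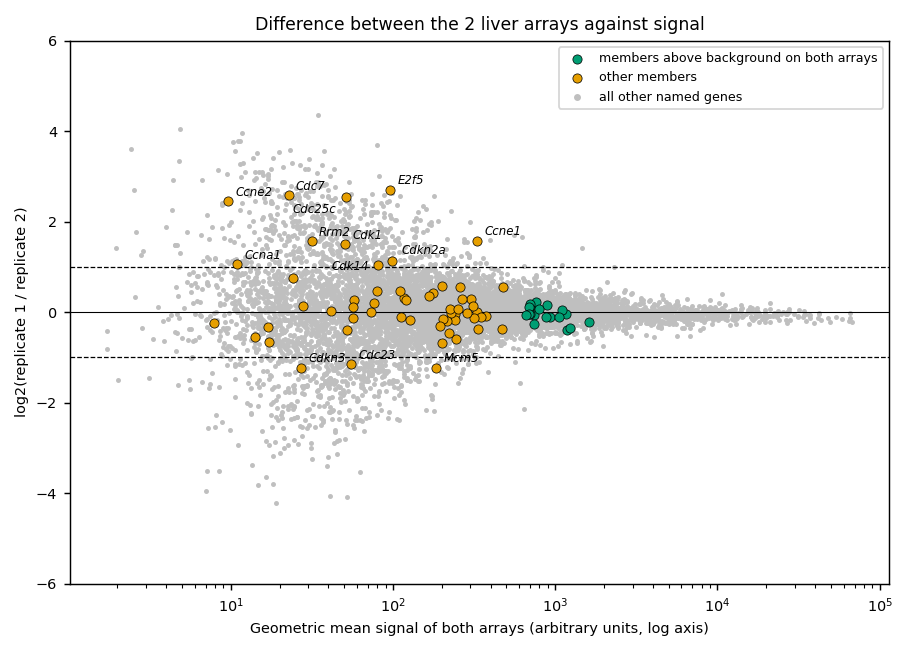
Log2 of replicate 1 over replicate 2 (vertical axis) against the geometric mean signal (arbitrary units, log axis) for members above the threshold on both arrays (green), other members (orange) and all other named genes (grey), with dashed lines at 2-fold. The 19 green points lie within the dashed lines, and the 13 named genes beyond them all have geometric mean signals below the thresholds.

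Among the genes above the threshold on at least 1 array, the furthest apart with a higher value on replicate 1 were Ccne1 and Cdc42se1 (log2 0.55), then Ccnd3 (0.24), Cdk5 (0.18) and Cdk18 (0.15). The furthest apart with a lower value on replicate 1 were Cdk2ap2 (-0.40), Cdc37 (-0.35), Mcm10 (-0.26), Cdc34 (-0.23) and Cdk2ap1 (-0.11). Apart from the first pair, which crossed the threshold, these differences reached at most a factor of 1.32.

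A gene's place also depended on which probe set read it. Of the 77 genes 22 had more than 1 probe set. For all 5 such genes with a set above the threshold on both arrays, another set was above it on neither. The second set of Cdk4 gave 258.3 on replicate 1 and 206.1 on replicate 2, that of Tk1 181.7 and 180.8, and that of Cdkn1a 377 and 318. The second set of Cdk5rap3 gave 439 and 343, and that of Cdc34, of suffix r, 20.5 and 48.2. Among all genes with several sets, 521 of 660 (78.9%) with a set above the threshold had another above it on neither array, so disagreement of this kind was common. In all, 19 probe sets of the 77 genes were above the threshold on both arrays, for 19 genes, so each of these calls rests on 1 probe set. Those of the 19 genes that were read by a single set had no second reading to compare.

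**Figure D4:**
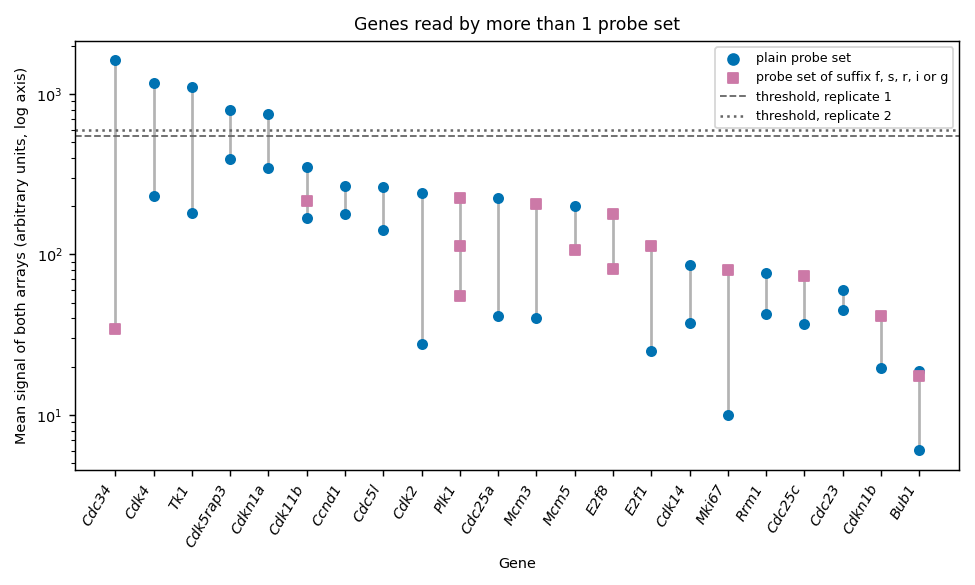
Mean signal of both arrays (arbitrary units, log axis) of every probe set of the 22 genes with more than 1, with circles for plain sets, squares for those of suffix f, g, i, r or s, and horizontal lines for the thresholds. Cdc34, Cdk4, Tk1, Cdk5rap3 and Cdkn1a have a set above the lines and another below them.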

How the data were processed

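Mouse total RNA was hybridised to 2 arrays. The authors deposited 1 linear signal intensity per probe set and array; how it was scaled and summarised is not given in the sources used here. Both arrays had the same trimmed mean, as a global scaling would give. The platform annotation named 1 gene for 10833 non-control probe sets, of which 10817 matched a RefSeq gene ID (GRCm38.p6) and 0 changed symbol. A gene was read from its probe set of highest mean log2 signal, and its percentile taken among all 8251 genes.

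Both samples form 1 group, so no test between groups was made and no p-value computed. The members and lists were chosen with earlier results of these data known. The 11 role groups were drawn up after the signals were seen. The background list held 104 genes, 95 measured, of which 4 exceeded the threshold on both arrays, 3 of them from suffixed sets (suffix f, g, i, r or s). Ccn symbols with text after the number were not taken. Motifs were searched in 8408 RefSeq windows, with 11 of the 65 matched members having more than 1.

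Named are all members above the threshold, the 3 highest and the lowest of each role group, genes whose probe sets disagree, the 5 furthest apart between arrays in each direction, and fixed genes, of which Ccnb1 and Cdk6 were not analysed here; other members are named to complete a group or a count. Alternatives were other thresholds (90th and 99th percentile, signal of 200), the mean log2 signal of a gene's sets, leaving out suffixed sets, quantile normalization, each array alone, log2(value + 32), subtracting the median difference of the brighter 50%, and, for motifs, the 250 bases before the start only. The fold and threshold steps were run on simulated arrays with planted changes and a small, even noise. The noise was smaller than that of the dim genes measured here. The planted bright genes passed the threshold by construction, and the motif search was not run on planted sequences. Arrays give no count depth, and their number limits the precision. Tools were numpy 2.4.6, scipy 1.17.1, pandas 2.3.3 and matplotlib 3.10.9 under Python 3.11.15.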

Additional observations from a re-analysis of the deposited data

How the results depend on the processing

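The number of the 77 genes above background was 19 and ran from 6 (99th percentile of the tissue genes) to 37 (signal of 200). It was 24 (31.2%, against 38.6% of all genes) with the 90th percentile, 24 of 75 without suffixed probe sets (32%, against 36.7%), and 19 to 21 on single arrays (24.7% to 27.3%, against 26.1% and 28.3%). Of the 19 genes, 5 kept their place in every alternative tried (Ccnl2, Cdc37, Cdk2ap2, Cdk4 and Tk1), and of 39 named genes not above background 26 did. Among these 26, E2f8 and Plk1 had only suffixed sets and could not be assessed without them. Of the 75 other cell cycle genes 2 were above background (2.67%, against 25.1% of all genes). There were 10 with the 90th percentile (13.3%, against 38.6%) and 1 with the 99th (1.33%, against 15.99%). A signal of 200 gave 18 (24.0%, against 49.3%). The mean of a gene's sets gave 5 (6.67%, against 31.5%), and leaving out suffixed sets gave 9 of 70 (12.9%, against 36.7%). On single arrays 2 to 5 of the 75 were above background, against 26.1% and 28.3% of all genes. The lower thresholds pass more genes by construction, and without suffixed sets the threshold itself fell to 326 and 309 on replicates 1 and 2. The median percentile of the 77 genes was 50.3, against 53.9 with the mean of a gene's sets and 52.5 without suffixed sets. Genes over 2-fold apart numbered 13 (16.9%, against 14.0% of all genes), against 0 among genes above background and 5 with 32 added to each signal. There were 11 with the mean of a gene's sets (14.3%, against 14.8%) and 11 after quantile normalization (14.3%, against 14.3%). Without suffixed sets there were 16 of 75 (21.3%, against 14.7% of all genes). The count of E2F-type promoters (10, or 9 before the start only) changed by less than 1.5 times. The median log2 difference between arrays was -0.059 after quantile normalization, against -0.006. It changed by less than 0.183, the median standard deviation of single members between arrays. That limit describes single genes, so a median of 77 genes staying within it says little. Low signals, where the arrays differed most, limit what can be said of most of these genes. No paired analysis was possible because the samples form a single group.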
